A study of Mus musculus with 12 samples.

Results

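Cytochrome P450 genes were examined as a set for the repressive histone mark H3K27me3 in mouse fibroblasts. Members were all protein-coding genes of GENCODE's annotation of mm9 whose symbol has the form Cyp, a family number, a subfamily letter and a gene number. The rule gave 97 of 22367 protein-coding genes and used no measured value. Each member's promoter was a window of 5001 bp that reached 2500 bp up- and downstream of the transcription start site (TSS, the 5' end of the gene), and the value given for a library is the number of those bases under its peaks.

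The mark was mapped by ChIP-seq in C2 iMEFs, a c-Myc-transformed mouse embryonic fibroblast clone that carries a floxed and a deleted Ezh2 allele and a tamoxifen-inducible Cre at ROSA26. Experiment 1 held 2 libraries of Ezh2 -/- cells (knockout, KO) and 2 of cells labelled Ezh2 WT/WT (wild type, WT). Experiment 2 held 1 library of cells that expressed Flag-tagged Ezh1 from a retrovirus before Ezh2 deletion (Ezh1 rescue), 1 of cells that likewise expressed Flag-tagged Ezh2 (Ezh2 rescue), 2 of KO and 2 of WT cells. The labels name the genotypes WT/WT and -/-, whereas the study's methods describe the same floxed clone without and with 4-hydroxytamoxifen. Every group is thus 1 clone. The experiments differ in antibody (from Active Motif in experiment 1, clone 7b11 in experiment 2), sequencer and read length. Levels were therefore compared within an experiment only. Besides the Active Motif antibody, the paper lists for ChIP-seq an earlier described antibody against both the di- and the trimethyl form. It does not name clone 7b11, so whether peaks of experiment 2 also hold the dimethyl form is not known. The study names biological replicates for some panels, and where libraries of a group are not separate cultures their spread is technical.

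P450s are heme enzymes that insert oxygen into small molecules. Some members make or break down hormones and signals in all vertebrates, such as steroids, retinoic acid and the active form of vitamin D. Others, in large tandem clusters of families 2, 3 and 4, oxidize drugs, toxins and fatty acids, chiefly in liver, gut, kidney and lung. Fibroblasts express few of them, and H3K27me3, which is placed by Polycomb-repressive complex 2 through Ezh2 or Ezh1, is often found at silent genes that lie in CpG-rich sequence.

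Most P450 promoters are poor in CpG. Within 500 bp of the TSS the median CpG observed-over-expected ratio was 0.15 over the 97 members and 0.55 over all protein-coding genes, and the median GC content was 49.0% and 54.8%. The 150 bases upstream of the TSS held at most 1 CpG in 58 members and none in 25. A few members follow because they span the range of CpG content and the peak patterns of the set, each on its coding strand, 5' to 3', with CpG dinucleotides in capitals (mm9, NCBIM37; chosen after their values were seen).
Cyp26a1: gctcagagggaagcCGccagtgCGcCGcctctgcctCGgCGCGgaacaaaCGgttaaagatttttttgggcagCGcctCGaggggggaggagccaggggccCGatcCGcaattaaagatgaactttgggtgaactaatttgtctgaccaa
Cyp24a1: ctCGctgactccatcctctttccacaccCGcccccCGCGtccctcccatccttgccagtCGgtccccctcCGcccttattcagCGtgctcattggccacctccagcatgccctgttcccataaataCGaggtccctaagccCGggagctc
Cyp20a1: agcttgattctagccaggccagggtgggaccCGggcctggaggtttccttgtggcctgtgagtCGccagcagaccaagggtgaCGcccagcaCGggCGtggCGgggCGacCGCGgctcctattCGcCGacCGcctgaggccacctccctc
Cyp1a1: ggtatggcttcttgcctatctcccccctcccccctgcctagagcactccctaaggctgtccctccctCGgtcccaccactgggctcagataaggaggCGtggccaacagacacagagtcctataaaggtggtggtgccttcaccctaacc
Cyp17a1: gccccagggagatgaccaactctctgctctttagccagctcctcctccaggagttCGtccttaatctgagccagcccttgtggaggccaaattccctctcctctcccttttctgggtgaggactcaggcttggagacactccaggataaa
Cyp3a11: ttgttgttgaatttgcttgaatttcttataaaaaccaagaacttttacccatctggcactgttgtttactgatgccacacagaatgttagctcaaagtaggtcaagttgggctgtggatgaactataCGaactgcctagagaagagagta
Cyp4a14: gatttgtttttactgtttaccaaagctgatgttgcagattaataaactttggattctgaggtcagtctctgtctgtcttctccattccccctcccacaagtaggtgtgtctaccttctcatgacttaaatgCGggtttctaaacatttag

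The stretches lie at chr19:37772148-37772297 (plus strand, Cyp26a1), chr2:170322646-170322795 (minus, Cyp24a1), chr1:60400017-60400166 (plus, Cyp20a1), chr9:57545270-57545419 (plus, Cyp1a1), chr19:46747465-46747614 (minus, Cyp17a1), chr5:146691541-146691690 (minus, Cyp3a11) and chr4:115168748-115168897 (minus, Cyp4a14). Cyp26a1, Cyp24a1 and Cyp20a1 have 11, 9 and 12 CpGs there, Cyp1a1 has 2, and Cyp17a1, Cyp3a11 and Cyp4a14 have 1 each. All 150 bases of the CpG-poor Cyp1a1 and Cyp17a1 stretches were under peaks in both WT libraries of experiment 1. The WT libraries of experiment 2 had no peak over any of these stretches. The CpG-rich Cyp26a1 stretch was under no peak of KO or WT libraries, and in WT iMEFs of experiment 1 the peaks stood on either side of it. The Cyp20a1 stretch was under no peak of any library. The Cyp24a1 stretch was whole under a peak in WT replicate 2 of experiment 1 and free of one in WT replicate 1. The Cyp3a11 stretch was under peaks in KO of experiment 1 alone (125 and 150 bases in KO replicates 1 and 2), as was the Cyp4a14 stretch (105 and 150 bases).

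In experiment 1, KO peaks met a larger share of P450 promoters than of all promoters, and WT peaks a similar share. In KO iMEFs 18 and 31 members had a promoter peak (18.6% and 32.0% of members, against 6.99% and 8.06% of all protein-coding genes). In WT iMEFs 24 and 27 members had one (24.7% and 27.8% of members, against 22.5% and 22.6% of all genes). These are called peaks. Whether the KO coefficient of 0.05 was applied before calling is not shown by the lists, and the dependence of the KO calls on it was not tested. By bases, 3.06% and 10.2% of member promoter sequence was under peaks in KO, against 9.63% and 11.7% in WT.

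**Figure D1:**
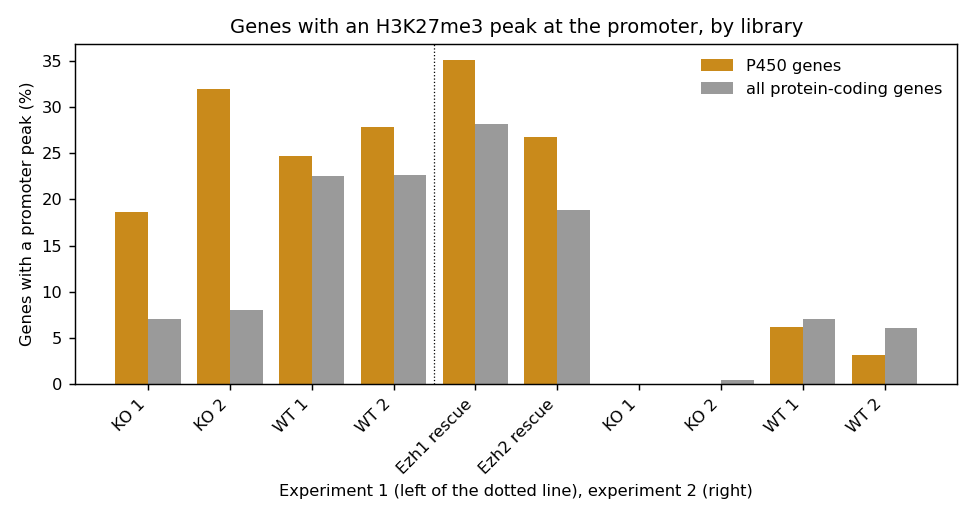
Percent of genes whose promoter window meets an H3K27me3 peak, for each of the 10 libraries, for the 97 P450 genes (orange bars) and all 22367 protein-coding genes (gray bars). The KO libraries of experiment 1 are those in which the orange bar stands furthest above the gray one in ratio (18.6% over 6.99% and 32.0% over 8.06%), and neither KO library of experiment 2 has an orange bar.

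In both WT libraries of experiment 1, 21 members had a promoter peak (21.6%, background 20.1% of all genes), and 19 of these had none in either KO library (19.6%, background 18.6%). In both KO libraries 16 members had one (16.5%, background 4.47%), and 33 had one in at least 1 KO library (34.0%, background 10.6%). Of those 33, 28 had no peak in either WT library (28.9% of members, background 8.54%). Both KO values lay below both WT values for 20 members (20.6%, background 19.6%), and above them for 15 (15.5%, background 3.76%). A peak in both a KO and a WT library was present at 5 members (5.15%, background 2.03%). These were 15.2% of the 33 members with a KO peak, against 19.2% of all genes with one. The calls below WT were thus about as frequent among P450s as among all genes, while the share of calls above WT exceeded the background share. Comparing 2 with 2 libraries, the smallest two-sided p that an exact permutation test can give for a single gene is 0.33, so non-overlap of the groups is given and no single member passes a test.

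KO replicate 2 carried most of the KO calls, with 15 members marked in it alone against 2 (Cyp2c68 and Cyp4f18) in KO replicate 1 alone. Among all genes the KO libraries were more even, with a peak at 8.06% in replicate 2 and 6.99% in replicate 1. The shares of members were 32.0% and 18.6%. Without KO replicate 1, 29 members lay above both WT libraries (29.9%, background 6.81%), and without KO replicate 2, 17 did (17.5%, background 6.16%). KO peaks were also narrow. The median width of peaks that met member promoters was 490 and 906 bp in KO replicates 1 and 2 and 1326 and 1340 bp in WT. With only peaks of at least 1000 bp kept, 2 members lay above WT in both KO libraries (2.06%, background 0.970%), and with a promoter of 1000 bp on either side 8 did (8.25%, background 2.25%).

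**Figure D2:**
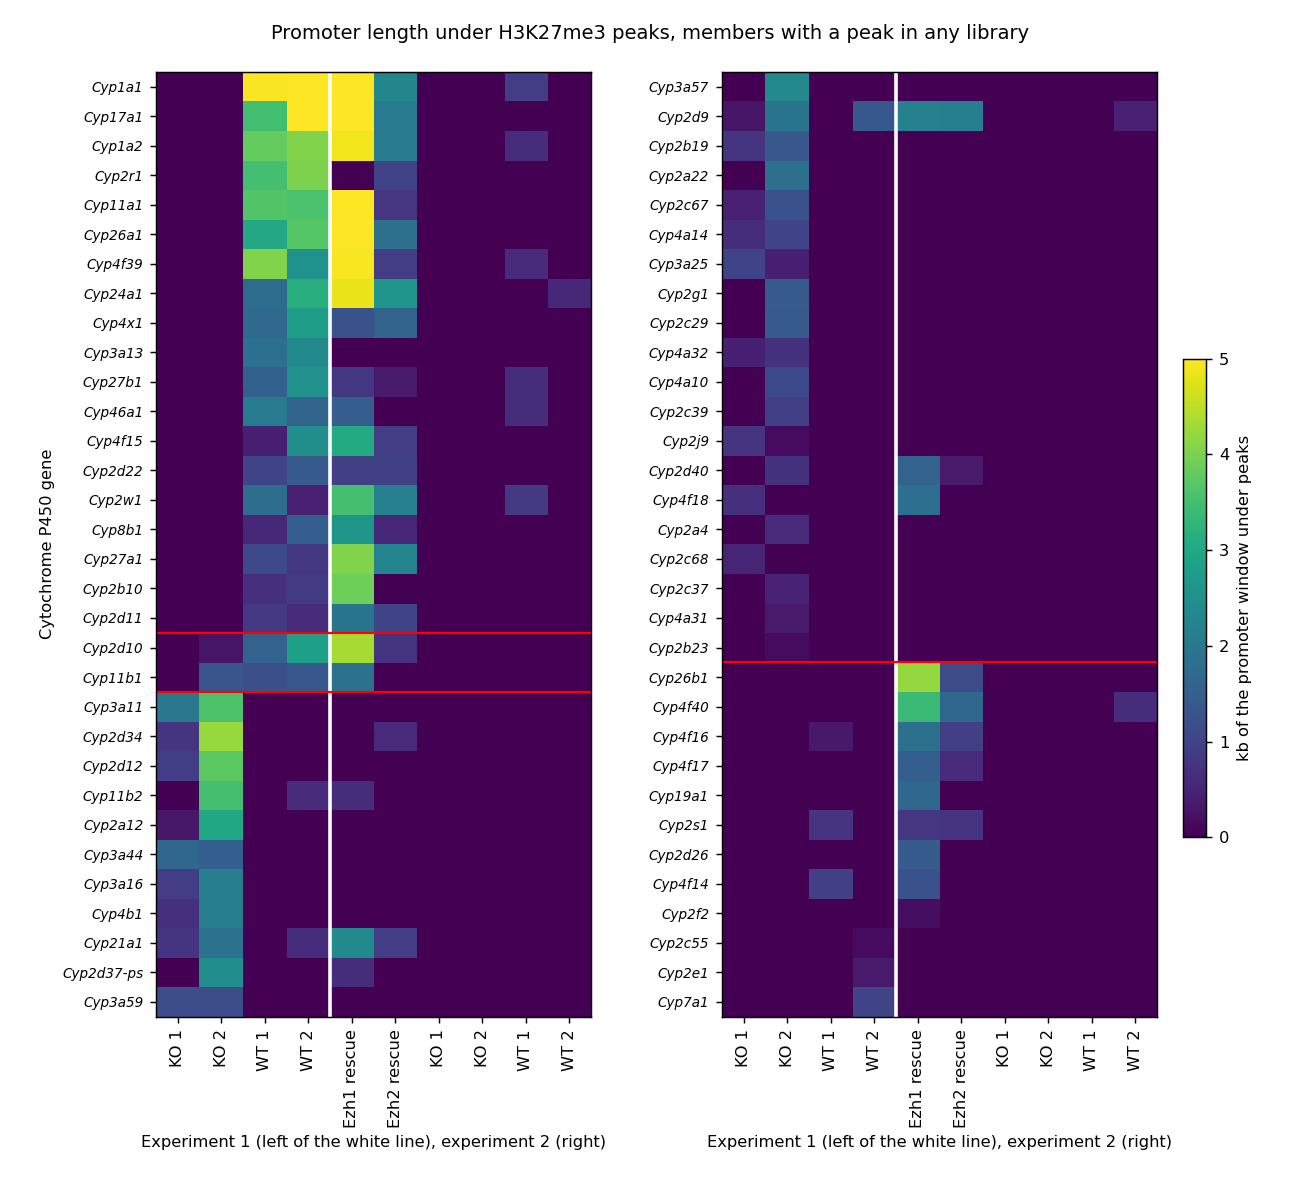
Promoter length under H3K27me3 peaks (color, kb of the 5001-bp window) for the 64 P450 genes with a peak in any library, in 2 panels that continue one list, with libraries in columns. Red lines part the genes marked in both WT libraries with no KO peak (19), those marked in both WT and in a KO library (2), the others with a KO peak (31, running over both panels) and the rest. The KO columns are dark for the first class and the WT columns are nearly all dark for the third.

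Counts by role are for experiment 1, where 20.1% of all genes were marked in both WT libraries and 10.6% had a KO peak. Family 1, whose enzymes are induced through the aryl hydrocarbon receptor, had 2 of 3 members in the WT-marked group. Cyp1a1, which oxidizes polycyclic aromatic hydrocarbons, had 0 and 0 bp under peaks in KO, against 4962 and 5001 bp in WT, the whole window or nearly so (99.6% ± 0.551, SD, n = 2). Its WT peak ran over the TSS at chr9:57540467-57547881 in replicate 1, with 4953 bp upstream of the gene, 87 bp in exons and 2375 bp in introns. Cyp1a2, its head-to-head neighbor and a main hepatic enzyme of caffeine oxidation, had 0 and 0 bp in KO, against 3810 and 4048 bp in WT. Cyp1b1, a family member known from mouse embryo fibroblasts, had no peak in its window in any of the 10 libraries.

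The vitamin D enzymes were the one hormone group marked throughout in WT of experiment 1, 3 of 3 (background 20.1%). Cyp2r1, which performs the first hydroxylation of vitamin D, had 0 and 0 bp in KO, against 3504 and 4023 bp in WT. Cyp24a1, which inactivates the hormone, had 0 and 0 bp in KO, against 1776 and 3162 bp in WT. Cyp27b1, which makes the active form in kidney, had 0 and 0 bp in KO, against 1553 and 2536 bp in WT. All 3 lay below WT in both KO libraries, without overlap. In experiment 2 none of them was marked in both WT libraries.

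Among the retinoic acid hydroxylases, which degrade that morphogen, 1 of 3 was marked. Cyp26a1 had 0 and 0 bp in KO, against 3027 and 3677 bp in WT (67.0% ± 9.19 of the window, SD, n = 2). In WT replicate 1 its peaks lay at chr19:37770601-37771901, upstream of the gene, and at chr19:37773073-37775598, over 837 bp of exons and 1689 bp of introns, so that the TSS between them was free of a peak. Its neighbor Cyp26c1 had no promoter peak in any library. Cyp26b1 had none in experiment 1 at its annotated 5' end, but a transcript start 5108 bp into the gene had 0 and 0 bp in KO, against 2836 and 429 bp in WT, and counting any transcript start brought it into the set marked in both WT libraries (22 members in place of 21).

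Of the 6 steroid hormone enzymes, 3 had a peak in both WT libraries and 3 in a KO library. Cyp11a1, which cleaves the cholesterol side chain to begin steroid synthesis, had 0 and 0 bp in KO, against 3644 and 3592 bp in WT. Cyp17a1, which leads to androgens, had 0 and 0 bp in KO, against 3488 and 5001 bp in WT. Both lay below WT in both KO libraries. The adrenal enzymes differed from these.

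Cyp11b1, which makes glucocorticoids, had 0 and 1321 bp in KO, against 1227 and 1354 bp in WT, and its groups overlapped. Cyp11b2, aldosterone synthase, had 0 and 3517 bp in KO, against 0 and 639 bp in WT. Cyp21a1, a hydroxylase of both adrenal pathways, had 764 and 1891 bp in KO, against 0 and 659 bp in WT, and was the only steroid gene above WT in both KO libraries. Cyp19a1, aromatase, had no promoter peak in experiment 1. Of the 75-base words sampled in their windows, 91.9%, 91.9% and 88.9% were unique in the genome for Cyp11b1, Cyp11b2 and Cyp21a1.

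For cholesterol and bile acid enzymes, 3 of 6 were marked in both WT libraries and none in KO. Cyp46a1, the cholesterol hydroxylase of brain, had 0 and 0 bp in KO, against 2049 and 1602 bp in WT. Cyp8b1, a hydroxylase needed for cholic acid, had 0 and 0 bp in KO, against 577 and 1498 bp in WT. Cyp27a1, the mitochondrial sterol hydroxylase, had 0 and 0 bp in KO, against 1099 and 802 bp in WT. All 3 lay below WT in both KO libraries. Cyp7a1, the rate-limiting enzyme of bile acid synthesis, had 1036 bp in WT replicate 2 alone, and Cyp7b1 and Cyp39a1, oxysterol hydroxylases, had no peak in any library.

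The large families had lower shares of WT-marked members than the groups above and held most of the KO-marked ones. In family 2 apart from Cyp2r1, 7 of 49 members had a peak in both KO libraries (14.3%, background 4.47%). A peak in at least 1 KO library was present at 18 (36.7%, background 10.6%), and in both WT libraries at 5 (10.2%, background 20.1%). In family 3 the counts were 5, 6 and 1 of 9 (55.6%, 66.7% and 11.1%). In family 4, whose enzymes hydroxylate fatty acids, they were 3, 6 and 3 of 17 (17.6%, 35.3% and 17.6%). The family 4 share marked in both WT libraries was thus near that of all genes. Cyp20a1, an orphan P450, had none.

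In family 2 the members marked in both WT libraries were Cyp2b10, Cyp2d10, Cyp2d11, Cyp2d22 and Cyp2w1. Cyp2w1, known for expression in fetal gut, had 0 and 0 bp in KO, against 1781 and 464 bp in WT. Cyp2b10, the phenobarbital-inducible hepatic enzyme, had 0 and 0 bp in KO, against 702 and 889 bp in WT. Both lay below WT in both KO libraries.

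Cyp2d10 had 0 and 292 bp in KO, against 1570 and 2813 bp in WT. Cyp2d11 had 0 and 0 bp in KO, against 828 and 635 bp in WT. Cyp2d22 had 0 and 0 bp in KO, against 1052 and 1438 bp in WT. These 3 drug-metabolizing genes are adjacent at one end of the Cyp2d cluster, and all lay below WT in both KO libraries.

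In family 3 the WT-marked member was Cyp3a13, a drug-metabolizing enzyme of liver and gut that lies away from the Cyp3a cluster on the same chromosome. It had 0 and 0 bp in KO, against 1817 and 2388 bp in WT. In family 4 Cyp4f39, which in mouse skin hydroxylates very long fatty acids, had 0 and 0 bp in KO, against 4059 and 2558 bp in WT. Cyp4f15 had 0 and 0 bp in KO, against 443 and 2467 bp in WT. All 3 lay below WT in both KO libraries, as did Cyp4x1, a member expressed in brain, with 0 and 0 bp in KO, against 1702 and 2777 bp in WT.

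At least 1 WT library of experiment 1 had a peak at 30 members (30.9%, background 25.0%), and both had one at 21 (21.6%, background 20.1%). A peak in 1 WT library alone was seen at 9 members. Besides Cyp7a1, Cyp11b2 and Cyp21a1 these were Cyp2c55 (145 bp), Cyp2d9 (1371 bp) and Cyp2e1, the ethanol-inducible enzyme (369 bp), in WT replicate 2. In WT replicate 1 they were Cyp2s1 (752 bp), Cyp4f14 (957 bp) and Cyp4f16 (338 bp). These calls did not repeat between WT libraries, and most covered under 1000 bp.

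Most KO-marked members sat in tandem clusters. With clusters defined as at least 4 members whose neighboring starts are no more than 300 kb apart, 67 members fell into 8 clusters and 30 lay outside. Of the clustered members, 29 had a peak in a KO library (43.3%, background 10.6%) and 15 in both (22.4%, background 4.47%). In both WT libraries 7 of them had one (10.4%, background 20.1%). Of those outside, 4 had a KO peak (13.3%), 1 in both KO libraries (3.33%), and 14 had one in both WT libraries (46.7%). The KO shares outside clusters were thus near the background. The WT share of the whole set joined a lower share in clusters and a higher one outside. 

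Clustered copies resemble each other, and the share of unique words bears on where reads can be placed. Among 49 clustered members with at least 90% unique words, 22 had a KO peak (44.9%, against 10.6% of all genes without that minimum). In both KO libraries 13 of them had one (26.5%, against 4.40% of all genes with that minimum). The 3 members with under 50% unique words, Cyp3a41a, Cyp3a41b and Cyp4a12a, had no peak in any library. Chromosome 5 held 21.2% and 21.7% of all bases under KO peaks, against 6.66% and 6.33% in WT, and 18.9% of its protein-coding genes had a KO promoter peak. Without chromosome 5, 11 of 87 members had a peak in both KO libraries (12.6%, against 4.17% of all genes off that chromosome), and 22 had one in a KO and in no WT library (25.3%, against 8.15%).

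The Cyp3a cluster, whose genes encode major drug-metabolizing enzymes of liver and gut, showed the highest span coverage of the 8 clusters in both KO libraries. Over its 819 kb on chromosome 5, 16.7% and 23.4% of bases were under KO peaks, against 0% and 0% in WT, and no other protein-coding gene starts within it. In the 500 kb on either side, 2.11% and 4.86% were under KO peaks, against 6.92% and 7.89% in WT. Peaks covered 0.915% and 2.13% of the genome in KO, and 5.32% and 6.67% in WT. The cluster was thus above both its flanks and the genome in KO, and below both in WT. Since chromosome 5 held 21.2% and 21.7% of all bases under KO peaks, the genome share is a low reference for a cluster there.

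Within the cluster 6 of 8 promoters had a KO peak and none had a WT one. Cyp3a11, the main hepatic member, had 2003 and 3611 bp in KO, against 0 and 0 bp in WT (56.1% ± 22.7 of the window in KO, SD, n = 2). One of its KO peaks ran over the TSS in each replicate, at chr5:146690291-146691665 and chr5:146690492-146692596. Cyp3a16, a fetal form, had 904 and 2131 bp in KO, against 0 and 0 bp in WT.

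Cyp3a44 had 1664 and 1501 bp in KO, Cyp3a59 had 1204 and 1206 bp, Cyp3a25 had 1015 and 433 bp, and Cyp3a57 had 0 and 2357 bp, all against 0 and 0 bp in WT. The first 3 lay above WT in both KO libraries. None of the 8 had a promoter peak in any library of experiment 2.

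The Cyp4a/Cyp4b/Cyp4x cluster on chromosome 4, rich in fatty acid hydroxylases of liver and kidney, had 6.23% and 12.3% of its 541 kb under KO peaks, against 0.663% and 1.55% in WT. Its flanks had 0.966% and 1.21% in KO, against 29.9% and 34.0% in WT. Cyp4a14, a target of the fatty acid receptor Ppara in mouse liver, had 662 and 1042 bp in KO, against 0 and 0 bp in WT. In this cluster, unlike its flanks, coverage was higher in KO than in WT in both replicates.

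Cyp4b1, an enzyme of lung, had 685 and 2131 bp in KO, against 0 and 0 bp in WT. Cyp4a32 had 444 and 727 bp in KO, Cyp4a10 had 0 and 1110 bp, and Cyp4a31 had 0 and 370 bp, all against 0 and 0 bp in WT. Cyp4x1, at the far end of the cluster, was the member with the opposite pattern.

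The Cyp2d cluster on chromosome 15 held both patterns, with 4.76% and 20.4% of 424 kb under KO peaks, against 7.18% and 10.4% in WT. Its flanks had 0.218% and 0.151% in KO, against 18.9% and 18.7% in WT. Cyp2d34 had 769 and 4221 bp in KO, against 0 and 0 bp in WT. Cyp2d12 had 931 and 3735 bp in KO, against 0 and 0 bp in WT. Both lay above WT without overlap and stand between the WT-marked Cyp2d10, Cyp2d11 and Cyp2d22 and the far end of the cluster.

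Cyp2d9, a male-predominant steroid hydroxylase of mouse liver, had 304 and 1938 bp in KO, against 0 and 1371 bp in WT, and its groups overlapped. Cyp2d37-ps had 0 and 2445 bp and Cyp2d40 had 0 and 741 bp in KO, against 0 and 0 bp in WT. Cyp2d26 had no peak in experiment 1. For Cyp2d9 75.8% of words were unique, for Cyp2d10 78.8% and for Cyp2d11 71.7%.

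The Cyp2c cluster on chromosome 19, the widest at 1180 kb, had 2.54% and 5.88% under KO peaks, against 0.0345% and 0.247% in WT. Of its 14 members 5 had a KO promoter peak and none had a peak in both WT libraries. Cyp2c67 had 454 and 1261 bp in KO, against 0 and 0 bp in WT, the only one marked in both KO libraries. Cyp2c29, Cyp2c39 and Cyp2c37 had 1416, 934 and 499 bp in KO replicate 2 alone, and Cyp2c68 had 512 bp in KO replicate 1 alone.

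The Cyp2j cluster on chromosome 4, whose enzymes epoxidize arachidonic acid, had 5.42% and 4.21% of 637 kb under KO peaks, against 0.0908% and 0% in WT. Only 1 of its 8 promoters was marked. Cyp2j9 had 770 and 150 bp in KO, against 0 and 0 bp in WT. Here KO peaks lay largely outside the promoters.

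The pair of clusters on chromosome 7 gave smaller and less even values. The larger (Cyp2a/Cyp2b/Cyp2f/Cyp2g/Cyp2t) had 1.12% and 8.41% of 493 kb under KO peaks, against 1.13% and 1.32% in WT. Cyp2a12 had 323 and 2984 bp in KO, against 0 and 0 bp in WT. Cyp2b19, an enzyme of skin keratinocytes in mouse, had 771 and 1348 bp in KO, against 0 and 0 bp in WT.

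Cyp2a22, Cyp2g1 (an enzyme of olfactory mucosa) and Cyp2b23 had 1837, 1434 and 150 bp in KO replicate 2 alone. The smaller cluster (Cyp2a/Cyp2b/Cyp2s) had 0.515% and 3.03% of 513 kb under KO peaks, against 2.84% and 3.98% in WT, and there Cyp2a4 had 615 bp in KO replicate 2 alone. Its KO and WT coverage overlapped.

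The Cyp4f cluster on chromosome 17 was the only cluster with both KO values below both WT values. It had 0.646% and 3.52% of 479 kb under KO peaks, against 16.3% and 21.0% in WT. Its flanks had 3.62% and 5.26% in KO, against 14.3% and 15.4% in WT. None of its 7 promoters had a KO peak. Cyp4f18, a leukotriene-metabolizing gene that lies apart on chromosome 8, had 675 and 0 bp in KO, against 0 and 0 bp in WT.

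**Figure D3:**
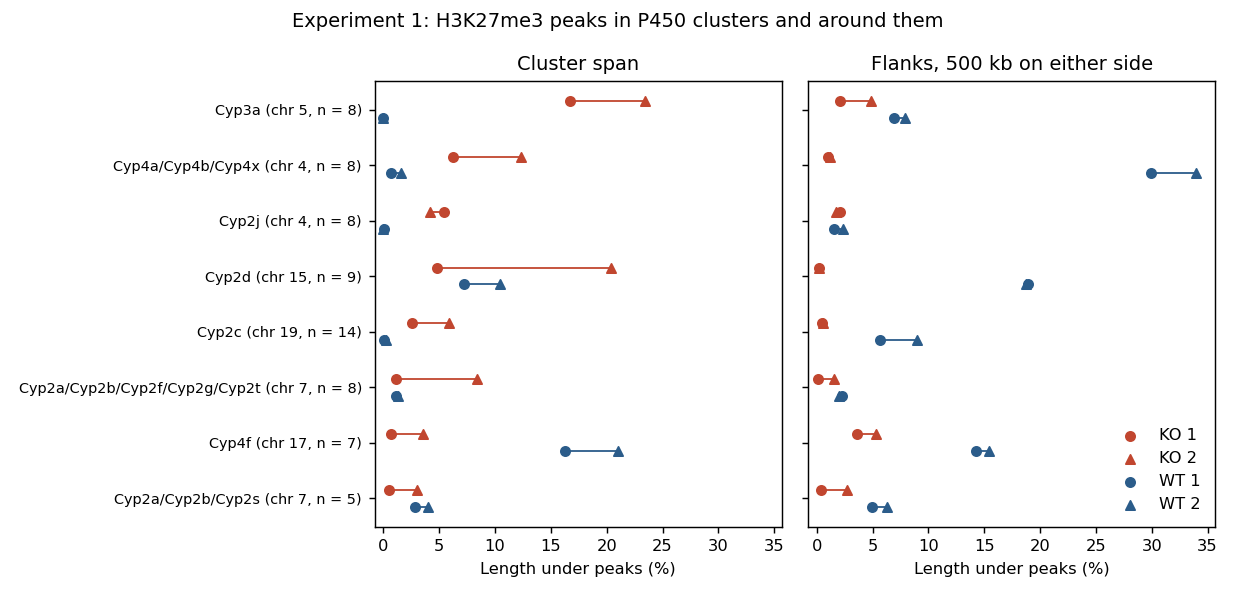
Percent of bases under H3K27me3 peaks in experiment 1 within the 8 P450 clusters (left) and in the 500 kb on either side (right), for KO (red) and WT (blue) libraries, with circles for replicate 1 and triangles for replicate 2. In the Cyp3a, Cyp4a/Cyp4b/Cyp4x, Cyp2j and Cyp2c clusters both KO points lie above both WT points, and in the Cyp4f cluster below them.

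Peaks were not centered on the start sites of the P450s. Of members with a peak, the TSS itself lay under one in 3 of 18 and 8 of 31 in KO, and in 6 of 24 and 9 of 27 in WT. Outside clusters, WT coverage was 15.2% and 17.0% in the bin from 250 to 500 bp downstream of the TSS, and 31.7% and 35.9% in the bin from 1000 to 1250 bp. Low values were not limited to the TSS, since the bin furthest upstream had 18.1% and 17.7%. In clustered members, KO coverage over the 250-bp bins ranged up to 7.10% in replicate 1 and 17.7% in replicate 2, whose highest bin was the one furthest upstream. Over the cluster spans, KO peaks covered 4.04% and 12.9% of promoter bases, 4.31% and 7.47% of gene bodies and 5.86% and 11.3% of the remaining sequence, so that promoters were not set apart from the rest of the clusters in both libraries.

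**Figure D4:**
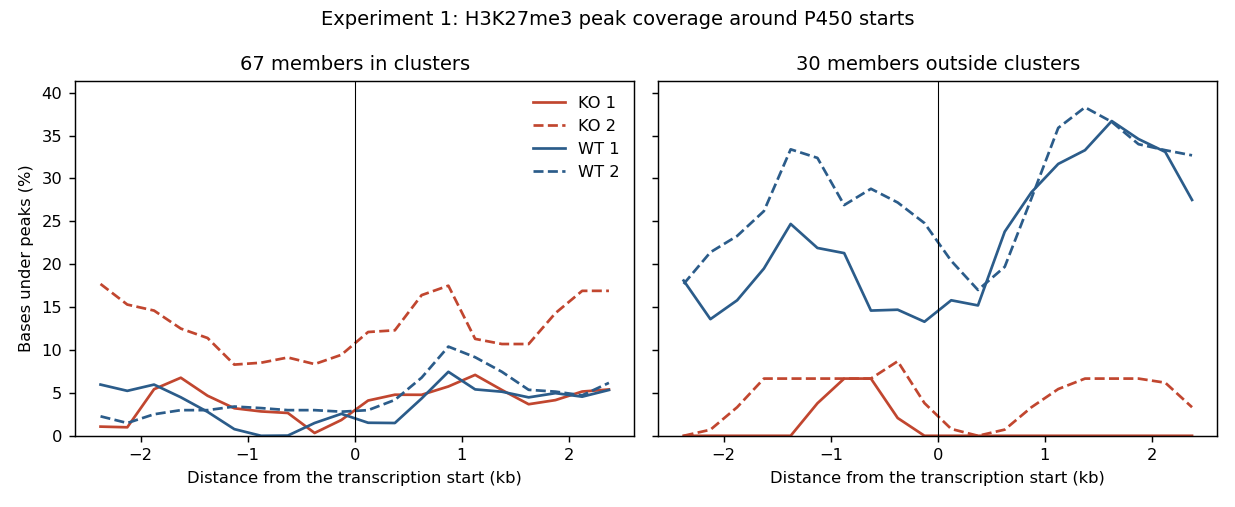
Percent of bases under H3K27me3 peaks in 250-bp bins around the TSS in experiment 1, for the 67 clustered members (left) and the 30 members outside clusters (right), with 1 line per KO (red) and WT (blue) library, solid for replicate 1 and dashed for replicate 2. In the right panel WT lines stand at 15.2% and 17.0% from 250 to 500 bp downstream of the TSS and at 31.7% and 35.9% from 1000 to 1250 bp. In the left panel the KO replicate 2 line is the highest, and the KO replicate 1 and WT lines cross each other.

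The KO-marked and WT-marked members also differed in base composition. The 33 members with a KO peak had a median GC content of 46.2% and a CpG ratio of 0.13 (range 0.02 to 0.29), and the 21 marked in both WT libraries had 51.5% and 0.25 (0.04 to 0.85). Members with no peak in any library had medians of 47.8% and 0.15, and all 97 had 49.0% and 0.15. By median CpG ratio the KO-marked members were thus near the whole set. Among all genes, the corresponding medians were 54.2% and 0.54 for genes with a KO peak and 56.0% and 0.49 for genes marked in both WT libraries. In GC-poor promoters (under 45%), 15 of 33 members had a KO peak (45.5%, against 465 of all 4244 genes in that range) and 1 of 33, Cyp3a13, had a peak in both WT libraries (3.03%, against 9.80%). From 45% to 50% GC, 9 of 22 members had a KO peak (40.9%, against 11.7%) and 4 of 22 (18.2%, against 21.7%) were marked in both WT libraries. From 50% to 55% these were 9 of 26 (34.6%, against 10.8%) and 7 of 26 (26.9%, against 23.7%).

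At 55% GC or more, 0 of 16 members had a KO peak (10.0% of all genes there) and 9 of 16 were marked in both WT libraries (56.2%, against 22.4%). Those 9 include Cyp46a1, Cyp26a1, Cyp24a1 and Cyp2r1, the 4 WT-marked members with a CpG ratio of 0.6 or more. The other 4 of the 8 members in that CpG range, Cyp20a1, Cyp2u1, Cyp39a1 and Cyp4v3, had no peak in any library. All 33 KO-marked members were among the 84 with a CpG ratio under 0.4 (39.3%, against 11.6% of all genes), where 15 were marked in both WT libraries (17.9%, against 21.2%). Low-CpG P450 promoters thus carried the WT mark at a share near that of other low-CpG genes. The KO pattern holds for members only. Of 3 P450s outside the symbol rule, with a median CpG ratio of 0.74, 2 (Cyp51 and Tbxas1) had a KO peak (66.7%, background 10.6%). The third, Ptgis (CpG ratio 0.48), was marked in both WT libraries. Composition and membership in a cluster go together in this set, and their parts in the KO calls were not tested.

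**Figure D5:**
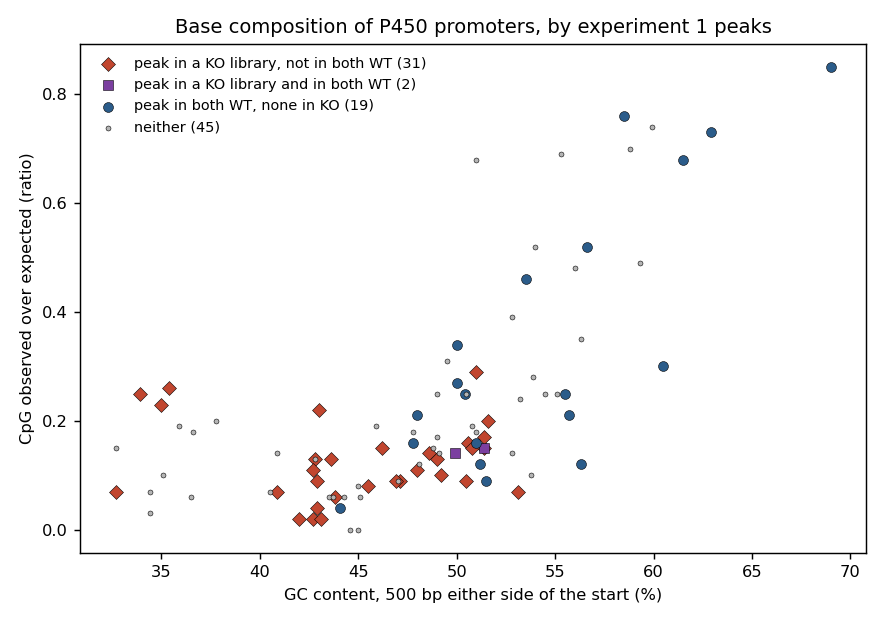
GC content (horizontal axis, %) and CpG observed-over-expected ratio (vertical axis) within 500 bp of the TSS for the 97 P450 genes, by their promoter peaks in experiment 1. Members with a KO peak (red diamonds, and purple squares where both WT libraries were marked too) stay below a CpG ratio of 0.29 or at it, whereas those marked in both WT libraries without a KO peak (blue circles) reach 0.85.

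In experiment 2 the rescues marked many of the same promoters as WT of experiment 1. The Ezh1 rescue had a peak at 34 members (35.1%, background 28.2%), and the Ezh2 rescue had one at 26 (26.8%, background 18.8%). A peak in the Ezh1 rescue alone was present at 10 members (10.3%, background 10.8%), and in the Ezh2 rescue alone at 2 (2.06%, background 1.36%). In KO of that experiment 0 and 0 members had one (background 0.0402% and 0.376%, and 0.380% in either library), and in WT 6 and 3 (6.19% and 3.09%, background 7.05% and 6.07%). No member (0 of 97) was marked in both of those WT libraries (background 3.11%), and so none lay below them in both KO libraries (background 3.03%). Likewise 0 lay above them (background 0.0224%). The lists of that experiment held few promoter peaks in WT for all genes too, and the P450 promoter bases under peaks were 0.888% and 0.341% in WT.

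Of the 21 members marked in both WT libraries of experiment 1, 19 had a peak in the Ezh1 rescue (90.5%, against 90.8% of all genes so marked), 17 in the Ezh2 rescue (81.0%, against 71.1%) and 7 in a WT library of experiment 2 (33.3%, against 37.9%). Of the 28 marked in KO alone, 3 had a peak in the Ezh1 rescue (10.7%, against 7.01%) and 2 in the Ezh2 rescue (7.14%, against 3.04%). None of the 30 members of the Cyp2c, Cyp2j and Cyp3a clusters had a peak in either rescue (background 28.2% for Ezh1 and 18.8% for Ezh2). None of those 30 was marked in both WT libraries of experiment 1 either (background 20.1%). Each of the other clusters held a member with a rescue peak. The antibody, sequencer and read length changed together between experiments. Their part in the absence of most KO-alone calls from experiment 2 cannot be told apart.

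Where both rescues had a peak (24 members, 24.7%, background 17.5%), the Ezh1 rescue had the wider coverage at 22. The median coverage was 3225 bp for the Ezh1 rescue against 1000 bp for the Ezh2 rescue, and 4150 and 1576 bp over all 3910 genes marked in both, of which 92.2% were wider in the Ezh1 rescue. By at least 500 bp, 28 members were wider in the Ezh1 rescue (28.9%, background 23.2%) and 2 in the Ezh2 rescue (2.06%, background 1.48%). With 1 library each there is no replicate check on these differences.

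Cyp1a1 had 5001 and 2300 bp under peaks of the Ezh1 and Ezh2 rescues, Cyp17a1 had 5001 and 2050 bp, Cyp26a1 had 5001 and 1850 bp, and Cyp11a1 had 5001 and 800 bp. The Ezh1 rescue thus filled the window at these 4. Its peak over Cyp11a1 was 23750 bp wide, and that over Cyp24a1, with 4851 bp of the window (2600 bp in the Ezh2 rescue), was 33300 bp wide. The members wider by at least 500 bp in the Ezh2 rescue were Cyp2r1, with 0 bp under Ezh1 rescue peaks and 1015 bp under Ezh2 rescue peaks, and Cyp2d34, with 0 and 600 bp. Cyp4x1 (1250 and 1600 bp) and Cyp2d22 (940 and 950 bp) were wider in it by less.

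A further 6 members had a peak in a rescue but in no library of experiment 1. Cyp26b1 had 4211 bp under Ezh1 rescue peaks and 1150 bp under Ezh2 rescue peaks, and Cyp4f40 had 3400 and 1696 bp. Cyp4f17 had 1500 and 600 bp, Cyp19a1 had 1667 and 0 bp, Cyp2d26 had 1450 and 0 bp, and Cyp2f2, an enzyme of airway club cells, had 178 and 0 bp. In the Cyp4f cluster the Ezh1 rescue marked 6 of 7 promoters and the Ezh2 rescue 5, and their peaks covered 41.9% and 6.99% of its span.

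Members with no peak in any library numbered 33 (34.0% of members, background 59.0%). They included 7 of the 8 Cyp2j genes, 8 of the 14 clustered Cyp2c genes, and the single-copy Cyp1b1, Cyp20a1, Cyp2u1, Cyp4v3, Cyp39a1 and Cyp7b1. Their median CpG ratio was 0.15, that of the whole set. The set thus had fewer members without any peak than protein-coding genes at large, with the KO calls of experiment 1 counted in.

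Genes that work with P450s are set here beside the all-gene shares of 10.6% with a KO peak and 20.1% marked in both WT libraries. Of 5 electron donors measured, which pass electrons to the enzymes, 1 had a KO peak (Cyb5b) and 0 were marked in both WT libraries. Of 15 retinoid pathway partners, 3 had a KO peak and 4 were marked in both WT libraries (26.7%), among them the retinol transporter gene Stra6 (0 and 0 bp in KO, against 4526 and 4995 bp in WT).

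Among conjugating enzymes that act after P450s, 7 of 21 UDP-glucuronosyltransferases had a KO peak (33.3%), 6 of them Ugt2 genes, and 2 had one in both KO libraries (9.52%, background 4.47%). Another 8 were marked in both WT libraries (38.1%), all of them Ugt1a genes, which share one locus. Of 17 sulfotransferases, 2 had a KO peak (11.8%) and 4 were marked in both WT libraries (23.5%), and of 22 glutathione transferases, 2 (9.09%) and 5 (22.7%), all near the all-gene shares. Of 14 fibroblast markers, 2 (Prrx1 and Vim) had a KO peak (14.3%) and 0 were marked in both WT libraries, and of 10 hepatocyte markers, 2 and 7 (70.0%).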

How the data were processed

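The deposited H3K27me3 peak lists cover 10 libraries, 4 in experiment 1 and 6 in experiment 2. The 2 input samples were not analysed here. The authors digested chromatin with micrococcal nuclease, aligned reads of 75 bp (experiment 1) or 100 bp (experiment 2) to mm9, removed duplicates, down-sampled to a common total with coefficients of 0.05 for KO and 0.25 for the Ezh1 rescue, and called peaks per sample against input. One section of their methods describes uniquely mapped reads and another a single location reported for reads with several hits, which bears on tandem copies. Tools named in the submitters' processing notes are MACS2 2.0.10, HOMER 3.17, SAMtools, Bowtie2 2.1.0 and Bowtie 0.12.8. The deposited lists hold peak positions (chromosome, start, end) with no score or read count, so depth is unknown, and they do not show whether the coefficients were applied before calling. A peak says where the mark was called, not its amount.

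Peak ends lay within the chromosomes of NCBIM37 (mm9). A call needed at least 1 bp of overlap. TSSs came from GENCODE M1, genes of the mitochondrial genome were left out, and sequences were read from NCBIM37. GC content and CpG ratio used 1001 bp around the TSS. Unique words were 75-base words taken every 50 bp and matched to the genome on both strands. Same-numbered KO and WT libraries were not treated as pairs. The members and gene lists were chosen with earlier results of these data known. The genes named are those with a promoter peak in both WT libraries of an experiment, those with a peak in a KO library, up to 10 others with the widest coverage in the rescues, and the hormone, vitamin and family 1 enzymes; others were chosen after their values were seen. On simulated data, 4000 windows gave 0 mismatches with a base-by-base count. The list of P450 regulators is not reported here. The alternatives were other windows, transcript starts, overlap and width minimums, merged peaks, subsets of members and leaving out each replicate. Scripts ran under Python 3.11.15 with pandas 2.3.3, NumPy 2.4.6, SciPy 1.17.1 and matplotlib 3.10.9.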

Additional observations from a re-analysis of the deposited data

How the results depend on the processing

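In experiment 1 the number of members marked in both WT libraries (21) was 15 to 27 under the other settings, and 24 and 27 when WT replicate 2 or 1 was left out. The all-gene share was 15.1% to 25.2% under these settings. The number below WT in both KO libraries (20) was 14 to 23, and 20 to 24 with a library left out. The all-gene share for that call was 14.9% to 24.4%. The KO calls moved more. Of 15 members above WT in both KO libraries, a window of 1000 bp left 8 (8.25%, against 2.25% of all genes). Peaks of at least 1000 bp left 2 (2.06%, against 0.970%), and leaving out a library gave 15 to 29 (all-gene shares 3.82% to 6.81%). With the same settings, the 16 members with a peak in both KO libraries became 8 (8.25%, against 2.53%) and 2 (2.06%, against 1.14%). They became 10 where 500 bp had to be covered (10.3%, against 2.38%). A single KO library gave 18 (18.6%, against 6.99%) or 31 (32.0%, against 8.06%). The 28 members marked in KO alone became 16 with peaks of at least 1000 bp (16.5%, against 2.89%). With a library left out they became 16 to 31 (all-gene shares 5.89% to 8.82%). In the Ezh2 rescue, 13 members in place of 26 had a peak of at least 1000 bp (13.4%, against 12.8% of all genes). The excess over all genes (26.8% against 18.8%) was thus not kept. In the 1000-bp window, 18 in place of 28 were wider in the Ezh1 rescue (18.6%, against 15.2%). In experiment 2 a window of 5000 bp gave 1 member marked in both WT libraries (1.03%, against 5.15%). It also gave 1 below them in both KO libraries (1.03%, against 5.04%). Leaving out a library gave 3 or 6 members marked in WT (3.09% and 6.19%, against 6.07% and 7.05%). With a library left out, 0 to 6 lay below WT (all-gene shares 3.03% to 6.93%). The settings for the 2 KO peak counts, and the minimum of 90% unique words, were chosen after seeing the data.

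Replicate numbers did not pair the libraries, since the deviations of same-numbered KO and WT libraries had correlations of 0.033 and -0.028 over 22367 promoters. With the replicate block, 21 members were lower and 16 higher in KO in experiment 1, and 0 were lower in experiment 2. Each duplicated group has 2 libraries and each rescue 1, and peak lists without read counts do not show how close a promoter came to being called.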
